A study of Rattus norvegicus with 8 samples.

Results

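The transcripts described here mark astrocytes, the star-shaped supporting cells of the central nervous system, and radial glia, their precursors. They comprise 31 named genes, read on every probe set whose single gene symbol in the platform annotation is one of the 31. There were 47 such probe sets, for 30 of the genes, among 31042 on the array. Sox9 had none and is not analysed here. A probe set was tested if it exceeded the 40th percentile of its array, an intensity between 221 and 287, on at least 4 of the 8 arrays. This left 33 probe sets for 27 of the genes, among 10961 genes tested in all, each read on its brightest tested probe set. In all 27 genes at least 3 arrays of each age lay above that level, so no gene passed through 1 age alone.

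The RNA came from motoneurons cut by laser from the lumbar cord of Wistar albino rats at postnatal day 21 (P21), after myelination was complete, and at postnatal day 1 (P1), while it was under way. Each age had 4 biological replicates on 1 Affymetrix RAE230 2.0 array each, every array made from 1500 to 2000 cells, and RNA was pooled from 4 rats. Each of 4 litters gave animals to both ages. The cells were cut from cresyl violet sections, and no label names a molecular marker or gate, so the pools can hold RNA of glia that wrap the motoneurons. In such bulk RNA, more cells of a type and more RNA per cell cannot be told apart. Of 13 motoneuron markers 11 were tested, with a summed intensity of 57977 to 65717 on the P21 arrays and 57981 to 61854 on the P1 arrays. The brightest genes weigh most in that sum: Nefm (mean 10265 at P21 and 10676 at P1), Nefl (9434 and 8977) and Nefh (9201 and 9181). The sum therefore cannot show whether the motoneuron content was equal.

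Radial glia line the embryonic neural tube, serve as stem cells and guide young neurons, and many of them later turn into astrocytes. Vimentin, nestin and the brain fatty acid binding protein belong to that early state. Mature astrocytes take up glutamate and potassium at synapses, hold water channels at their endfeet on vessels, and build filaments of glial fibrillary acidic protein. In the spinal cord their fine processes lie directly on motoneuron cell bodies.

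The mature markers that passed the test were all higher at P21, and the early markers that passed it were all lower. The genes were divided into mature and early with earlier results of these data known, so this is a description and not a test of the division. Of 20 mature astrocyte genes tested, 10 were higher at P21 and 0 lower, with a median change of 0.35. Of 7 genes of radial or immature glia tested, 3 were lower and 0 higher, with a median change of -0.15. At an unadjusted p under 0.05 the counts were 10 higher and 0 lower for the mature genes, and 1 higher (Cd44) and 3 lower for the others. Changes are log2 ratios of P21 to P1 on the scale of intensity + 16, written with their standard error, and a gene was called at an adjusted p under 0.05 in limma (Benjamini-Hochberg over all 19155 tested probe sets). Over all 27 genes that gave 10 higher and 3 lower, against 22% higher and 17.4% lower among all genes tested, which had a median change of 0.05. The 13 called genes are 48.1% of the 27, against 39.4% called among all genes. At least 2-fold change among the called was seen in 6 of the 27 genes and in 10.3% of all genes. The 4 P21 intensities all lay above the 4 P1 intensities in 8 of the 27 genes and all below them in 4, against 21.9% and 18.2% of all genes. The count of higher genes was 6 in place of 10 without P21 replicate 1, P1 replicate 3 or P1 replicate 4, and also 6 with arrays centred on their medians or with no filter, while the count of lower genes stayed at 3 in each of these.

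**Figure D1:**
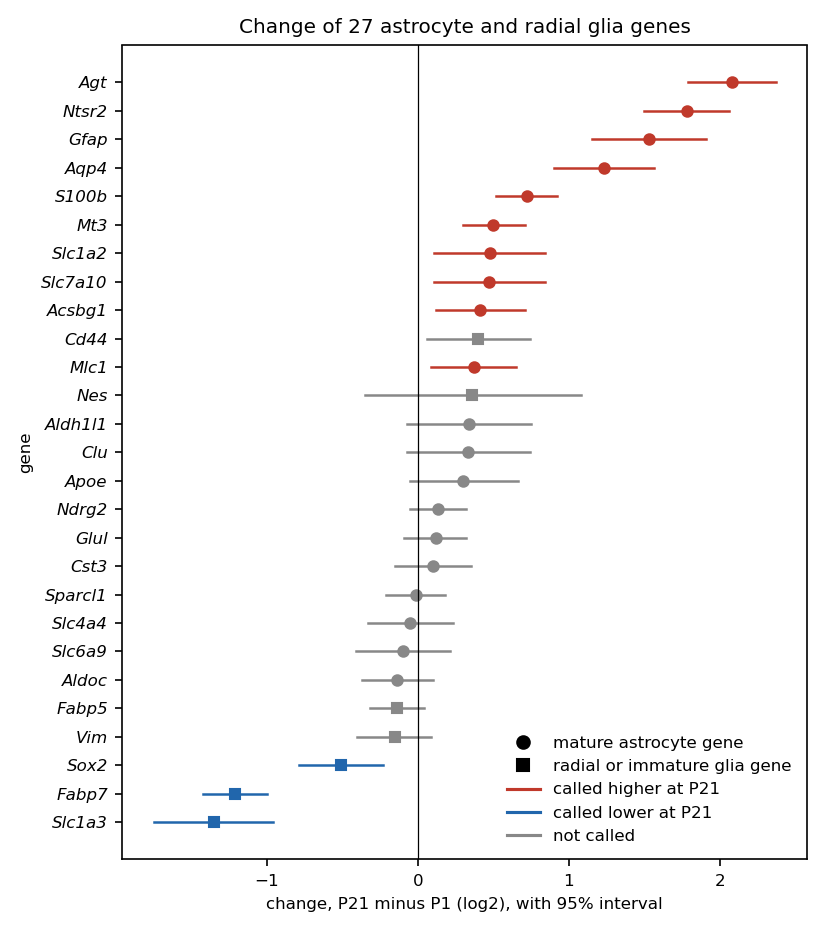
Change of the 27 tested genes, P21 minus P1 on the log2 scale (horizontal axis), with the 95% interval of the limma fit over 4 P21 and 4 P1 arrays. Circles are mature astrocyte genes and squares are radial or immature glia genes, and colour gives the call. The top of the plot is held by Agt (2.08), Ntsr2 (1.78), Gfap (1.53) and Aqp4 (1.23), and the bottom by Fabp7 (-1.21) and Slc1a3 (-1.35).

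To show the control regions of 2 genes that were higher and 2 that were lower, the windows around the RefSeq start sites of Gfap, Ntsr2, Slc1a3 and Fabp7 are given, from 250 bases before the start to 50 after it. Capitals mark matches, on either strand, to letters bound by factors known from glial development: TTCNNNGAA (STAT), TGGGAA (RBPJ, the Notch effector) and ACAAT (SOX).
Gfap, GRCr8, chr10:88361612-88361911, minus strand: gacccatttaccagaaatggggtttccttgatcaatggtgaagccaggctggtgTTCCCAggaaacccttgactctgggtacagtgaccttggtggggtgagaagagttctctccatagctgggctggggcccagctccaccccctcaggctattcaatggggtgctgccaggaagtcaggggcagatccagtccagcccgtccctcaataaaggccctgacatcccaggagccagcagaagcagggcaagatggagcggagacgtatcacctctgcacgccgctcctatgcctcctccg
Ntsr2, GRCr8, chr6:45152845-45153144, plus strand: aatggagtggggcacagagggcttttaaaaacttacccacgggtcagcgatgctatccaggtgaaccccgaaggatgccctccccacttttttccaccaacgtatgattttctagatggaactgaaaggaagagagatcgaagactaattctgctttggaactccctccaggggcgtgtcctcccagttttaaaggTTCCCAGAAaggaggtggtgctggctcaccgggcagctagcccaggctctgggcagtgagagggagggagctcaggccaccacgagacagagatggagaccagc
Slc1a3, GRCr8, chr2:59557759-59558058, minus strand: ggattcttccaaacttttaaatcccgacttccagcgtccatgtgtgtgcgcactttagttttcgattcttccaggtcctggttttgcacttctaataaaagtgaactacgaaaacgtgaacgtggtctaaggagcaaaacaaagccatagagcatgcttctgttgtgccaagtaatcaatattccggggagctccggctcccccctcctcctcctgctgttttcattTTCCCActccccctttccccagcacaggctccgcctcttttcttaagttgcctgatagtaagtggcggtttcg
Fabp7, GRCr8, chr20:37669356-37669655, plus strand: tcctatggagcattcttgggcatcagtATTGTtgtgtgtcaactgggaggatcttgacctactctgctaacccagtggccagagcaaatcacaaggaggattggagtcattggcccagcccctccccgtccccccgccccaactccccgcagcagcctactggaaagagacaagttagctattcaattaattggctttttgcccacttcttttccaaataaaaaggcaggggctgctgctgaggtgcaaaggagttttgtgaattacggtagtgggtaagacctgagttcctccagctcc
Gfap held 1 RBPJ match that begins at base -196. Ntsr2 held a STAT and an RBPJ match that overlap and both begin at base -54. Slc1a3 held an RBPJ match that begins at base -23. Fabp7 held a SOX match that begins at base -223. Every window shown held a match, while those of the called genes Aqp4, Mt3, Slc1a2, Slc7a10 and Sox2 held none. RefSeq windows were found for 27 of the 31 genes, Agt not among them. The RBPJ letters were in 8 of these 27 and in 25.1% of all 27457 promoters, the STAT letters in 2 of 27 and 8.68%, and the SOX letters in 6 of 27 and 33.1%. The full palindromic site of NFI, a factor of astrocyte differentiation, was in 0 of the 27 and in 0.0437% of all promoters. Among genes called higher, 3 of 9 held the RBPJ letters, and among genes called lower, 1 of 3. A match is only a run of letters and not a shown binding site.

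Of the 3 intermediate filament genes, which give glia their internal scaffold, only Gfap passed the test. Gfap, the filament of mature astrocytes, had intensities of 3293, 3757, 4001 and 4788 on the P21 arrays, against 987, 1531, 1358 and 1596 on the P1 arrays. The lowest P21 array was above the highest P1 array. Gfap was 2.89-fold higher at P21 (change 1.53 ± 0.17, limma adjusted p = 9.92e-05, n = 4 arrays per age). Vim, the filament of radial glia, vessels and many immature cells, read 3296, 3709, 3226 and 2803 at P21, against 3398, 3388, 3689.8 and 3978 at P1. The ages overlapped, and the change of -0.15 had an interval of -0.40 to 0.09 (limma adjusted p = 0.303). Nes, the nestin gene of neural stem cells, lay near the filter level, with 537, 336, 439.9 and 184 at P21 and 281, 182, 247 and 402 at P1. Its interval, -0.35 to 1.08, was the widest of the 27 genes. Within each array, the log2 ratio of Gfap to Vim was between 0.00 and 0.77 at P21 and between -1.77 and -1.14 at P1.

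Of 3 water and ion transport genes of the astrocyte membrane, Aqp4 and Mlc1 were higher at P21 and Slc4a4 did not pass. Aqp4, the water channel of astrocyte endfeet, read 2549, 2257, 2838 and 2484 at P21, against 927, 1352, 1163 and 876 at P1. The ages did not overlap, and Aqp4 was 2.35-fold higher at P21 (change 1.23 ± 0.15, limma adjusted p = 1.58e-04). Its other tested probe set read 433 to 512 at P21 (at least 1.83-fold higher). At P1 all 4 arrays of that probe set were below the filter level, so it was tested through P21 alone. A further Aqp4 probe set, too dim to test, averaged 112 at P21 and 111 at P1. Mlc1, an endfoot membrane protein whose human gene is mutated in a leukodystrophy, read 1403 to 1885 at P21 and 1011 to 1307 at P1 (change 0.37 ± 0.13, limma adjusted p = 0.0436). That call did not hold in 9 of 17 alternatives, among them those without P21 replicate 1, 2 or 3 or P1 replicate 2, 3 or 4 (adjusted p = 0.0534 to 0.0959). Slc4a4, the sodium bicarbonate cotransporter, did not pass on either of its tested probe sets (changes -0.05 and -0.05, adjusted p = 0.78 and 0.816).

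Genes that handle transmitter amino acids went both ways. Slc1a3 encodes the glutamate transporter GLAST, the main one of radial glia and young astrocytes. It read 1119, 974, 1782 and 1272 at P21, against 3023, 2839, 3623 and 3501 at P1. Every P21 array was below every P1 array, and the fall was 2.56-fold (change -1.35 ± 0.18, limma adjusted p = 2.91e-04). A further tested probe set of Slc1a3 also fell, by less (-0.47, adjusted p = 0.0224). Slc1a2 encodes GLT-1, the main glutamate transporter of mature astrocytes. It read 574, 588, 596 and 577 at P21, against 468, 528, 288 and 418 at P1. The P21 arrays were close together and above all P1 arrays, with a change of 0.48 ± 0.16 (limma adjusted p = 0.044). The call on Slc1a2 was lost in 9 of the 16 alternatives that tested it, among them those without any 1 of the 8 arrays other than P1 replicate 2 (adjusted p = 0.0501 to 0.0882). The log2 ratio of Slc1a2 to Slc1a3 within an array was between -1.55 and -0.71 at P21 and between -3.58 and -2.39 at P1, ranges that do not overlap.

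Glul, glutamine synthetase, turns the glutamate that astrocytes take up into glutamine. Its brighter probe set read 4096, 4241, 4301 and 3848 at P21 and 3803, 3403, 3954 and 4078 at P1, and did not pass (0.12, adjusted p = 0.359). Its dimmer probe set, with 1475 to 1891 at P21 and 1081 to 1339 at P1, was higher at P21 (0.47 ± 0.12, limma adjusted p = 0.0112). With the mean of both probe sets Glul was higher at P21 (0.29, adjusted p = 0.029). Slc7a10, a transporter of D-serine and other small amino acids, read 859 to 1152 at P21 and 523 to 874 at P1 (change 0.47 ± 0.16, limma adjusted p = 0.0435), a call lost in 10 of 17 alternatives, among them those without any 1 array other than P1 replicate 1 (adjusted p = 0.0567 to 0.113). Slc6a9, the glycine transporter GlyT1 of glia, did not pass (-0.10, interval -0.41 to 0.21). Slc6a11, a GABA transporter, and Slc7a11, the cystine-glutamate exchanger, were not tested because their probe sets were dim. Slc6a11 read 167 to 208 at P21 and 101 to 187 at P1, and Slc7a11 104 to 359 at P21 and 112 to 247 at P1.

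The 2 lipid chaperones, which carry fatty acids inside immature glia, both read lower at P21, 1 of them past the test. Fabp7, the brain fatty acid binding protein, read 3047, 3008, 3518 and 3573 at P21, against 7827, 7311, 7785 and 7417 at P1. The arrays of an age were close together and the ages far apart. Fabp7 fell 2.31-fold (change -1.21 ± 0.09, limma adjusted p = 1.16e-05). Fabp5, its relative that is also made in endothelium and young neurons, read 7849 to 8399 at P21 and 8695 to 9179 at P1. All P21 arrays lay below all P1 arrays, but the change of -0.14 did not pass (interval -0.32 to 0.04, limma adjusted p = 0.192). The log2 ratio of Fabp7 to Fabp5 within an array was -1.40 to -1.19 at P21 and -0.29 to -0.16 at P1.

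**Figure D2:**
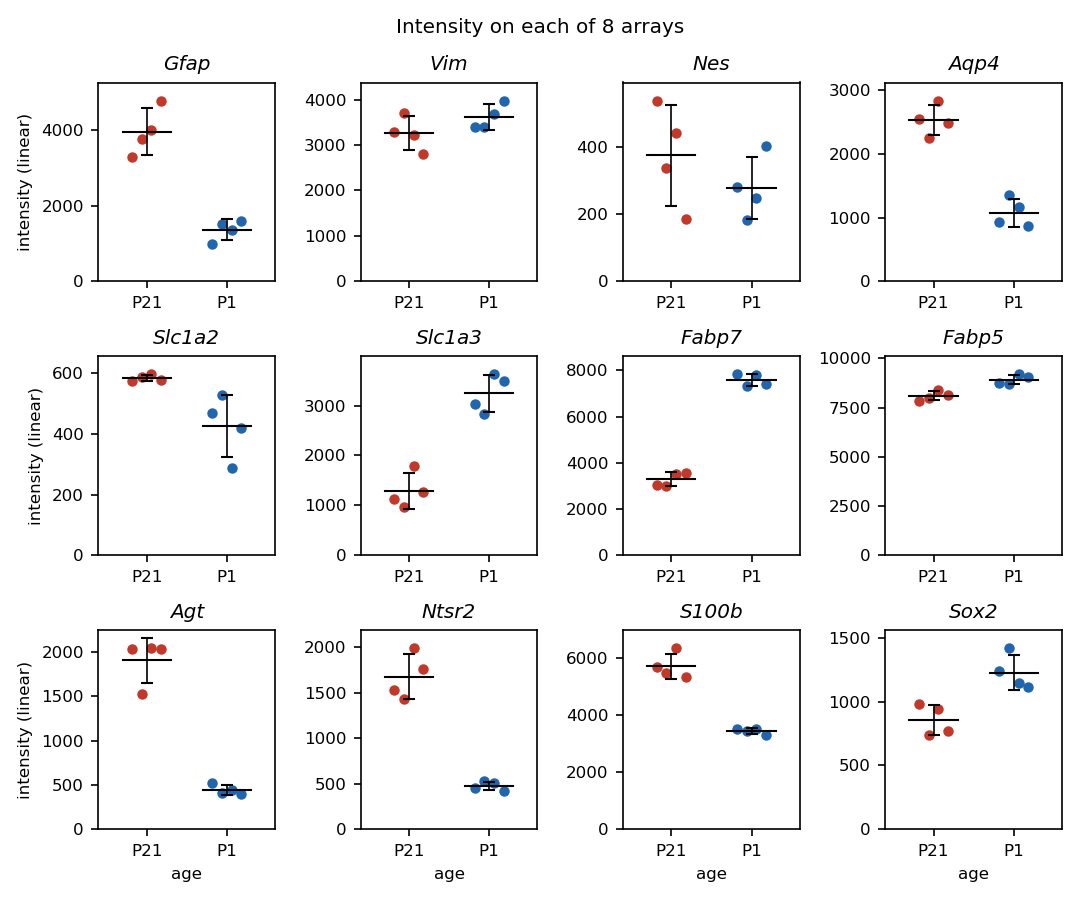
Linear intensity (vertical axis, from 0) of 12 of the genes on each of the 8 arrays, P21 at left and P1 at right, with replicates 1 to 4 of an age drawn left to right. Horizontal lines are means and bars are SDs (n = 4 arrays per age). Gfap, Aqp4, Slc1a2, Agt, Ntsr2 and S100b are separated with P21 above. Slc1a3, Fabp7, Sox2 and Fabp5, which was not called, are separated with P21 below, and Vim and Nes overlap.

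Among secreted proteins, Agt had the largest rise of the 27 genes. It encodes angiotensinogen, the precursor of angiotensin, which astrocytes make in the brain. Agt read 2032, 1527, 2043 and 2036 at P21, against 516, 408, 440.1 and 393 at P1. It was 4.22-fold higher at P21 (change 2.08 ± 0.13, limma adjusted p = 3.48e-06). The other secreted proteins did not pass. Apoe, the lipid carrier, averaged 4041 ± 587 at P21 and 3288 ± 609.7 at P1 (adjusted p = 0.158). Clu, the chaperone clusterin, averaged 4602 ± 881 at P21 and 3656 ± 728 at P1 (adjusted p = 0.176). Cst3, the protease inhibitor cystatin C, averaged 5266 ± 479 at P21 and 4929.6 ± 567 at P1 (adjusted p = 0.525). Sparcl1, the synapse-promoting hevin, averaged 6637 ± 447 at P21 and 6695 ± 268 at P1 (adjusted p = 0.911). These errors are SDs over 4 arrays.

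Enzymes and binding proteins of the astrocyte cytoplasm gave 3 rises among 6 genes. S100b, a calcium-binding protein, read 5696, 5477, 6354 and 5362 at P21, against 3519, 3464, 3535 and 3304 at P1. S100b was 1.65-fold higher (change 0.72 ± 0.09, limma adjusted p = 1.91e-04). Mt3, the brain metallothionein that holds zinc, read 7266, 6847, 8074 and 7748 at P21 and 4884, 5327, 5281 and 5618 at P1. Its change was 0.50 ± 0.09 (limma adjusted p = 0.00209), and both genes were separated between the ages. Acsbg1, an acyl-CoA synthetase, had a change of 0.41 ± 0.13 (limma adjusted p = 0.0334) whose call was lost in 8 of 17 alternatives, among them those without P21 replicate 1, 3 or 4 or P1 replicate 2, 3 or 4 (adjusted p = 0.0588 to 0.0831). Aldh1l1, a folate enzyme widely used as a marker of all astrocytes, read 607, 574, 1000.3 and 776 at P21 and 660.1, 501, 633 and 495 at P1, and did not pass (change 0.34, interval -0.07 to 0.75, adjusted p = 0.176). Aldoc, the brain aldolase, did not pass either (-0.14, interval -0.37 to 0.10). Ndrg2, a cytoplasmic protein of astrocytes, read 7784 to 8273 at P21 and 7043 to 7805 at P1 (0.13, adjusted p = 0.232), but passed with quantile normalization (0.20, adjusted p = 0.0396).

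Receptors and transcription regulators complete the set. Ntsr2, the low-affinity neurotensin receptor that astrocytes carry, read 1534, 1428, 1989 and 1765 at P21, against 450.4, 525, 503 and 422 at P1. The lowest P21 array was far above the highest P1 array, and Ntsr2 was 3.43-fold higher (change 1.78 ± 0.13, limma adjusted p = 6.54e-06). Cd44, a hyaluronan receptor of fibrous astrocytes and their precursors, read 496, 394, 382 and 575 at P21 and 356, 403, 316 and 298 at P1. It did not pass (0.40 ± 0.15, limma adjusted p = 0.0618), although its own interval, 0.06 to 0.74, lay above 0, and it passed without P21 replicate 3 (adjusted p = 0.0414), without P1 replicate 2 (adjusted p = 0.0399) and with array quality weights (0.48, adjusted p = 0.0192). Sox2, the stem cell transcription factor that astrocytes keep, read 980.1, 743, 942 and 772 at P21, against 1238, 1419.8, 1147 and 1115 at P1. Sox2 fell on that probe set (-0.51 ± 0.12, limma adjusted p = 0.00953) and on another (-0.44, adjusted p = 0.0318), while another, dimmer one did not pass (0.25, adjusted p = 0.165). With the mean of the 3, the change was -0.23 and did not pass (adjusted p = 0.0826). Id3, a helix-loop-helix inhibitor of differentiation, was not tested, with 168 to 246 at P21 and 187 to 287 at P1.

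The replicate numbers allow a reading pair by pair, although the design text does not say that a number is a litter. Deviations of same-numbered arrays correlated at 0.514, 0.321, 0.558 and 0.15 for numbers 1 to 4. Those of different number correlated at -0.458 to 0.366, the highest for P21 replicate 3 and P1 replicate 4. The pairing thus rests on these same data, and the calls above do not use it. All 4 same-number differences were above 0 in 11 of the 27 genes and below 0 in 4, against 33.3% and 29% of all genes. The median difference over the 27 genes was 0.18, 0.20, 0.28 and 0.00 for numbers 1 to 4. The coefficient of variation within an age had a median of 13.9% at P21 and 10.8% at P1 over the 27 genes, beside 12.2% at P21 and 10.8% at P1 over all genes. It ran at P21 between 1.75% for Slc1a2 and 40.3% for Nes.

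Other astrocyte genes, listed with earlier results known and holding none of the 31, were called in both directions. Of 65, 47 were tested, and 17 were higher (36.2%, beside 22% of all genes) and 9 lower (19.1%, beside 17.4% of all genes), with a median change of 0.03 beside 0.05 for all genes. Of the 17, 3 (Lcat, Prodh and Aldh1a1) were below the filter level on all P1 arrays and so were tested through P21 alone. Among the 9, Thbs4 was below it on all P21 arrays and so was tested through P1 alone. Among the largest rises was Gjb6, the gap junction protein connexin 30 of mature astrocytes, with 1432, 1543, 1417 and 1078 at P21, against 30.5, 129, 47.4 and 255 at P1. The change of Gjb6 was 3.72 ± 0.47 (limma adjusted p = 2.40e-04), and 3 of its 4 P1 arrays were below the filter level. Gja1, connexin 43, the other astrocyte gap junction protein, was already bright at P1 and averaged 7032 ± 624 at P21 and 4425 ± 609 at P1 (change 0.67 ± 0.12, adjusted p = 0.0021). Lcat, which esterifies cholesterol on lipoproteins, read 424 to 864 at P21 and 17.8 to 63.1 at P1, below the filter level on all P1 arrays (at least 2.54-fold higher). Aldh1a1, a retinaldehyde dehydrogenase, was likewise at least 2.18-fold higher. The falls included Fjx1 (-1.61), the thrombospondin gene Thbs4 (at least 1.81-fold lower), and Cbs (-0.94), an enzyme of sulphur amino acids.

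Other genes of radial glia and progenitors were also called in both directions. Of 36 tested, 8 were higher (22.2%, beside 22% of all genes) and 9 lower (25.0%, beside 17.4% of all genes). Their median change was -0.03, beside 0.05 for all genes. Among the 9, Fut4 was below the filter level on all P21 arrays and so was tested through P1 alone. Tnc, the matrix protein tenascin C of radial glia, read 441, 366, 416 and 2041 at P21, against 2920.1, 2284, 2616 and 2770.2 at P1. P21 replicate 4 stood far above the other P21 arrays, and without it the change was -2.65 in place of -2.08 (adjusted p = 3.07e-06). On that array the fibroblast and meningeal markers summed to 33455, the microglial markers to 12779 and the reactive astrocyte genes to 22369, each the highest of the P21 arrays. The fibroblast sum was nearly as high on P21 replicate 2 (33076), where Tnc read 366. Endothelial and pericyte markers (10401) and erythrocyte markers (9214) had their lowest P21 sums on replicate 4. The source of its high Tnc was not tested. Gfap and Cd44 were also highest on P21 replicate 4, and without that array Gfap rose by 1.44 (limma adjusted p = 3.42e-04). Nkx6-1, a ventral progenitor factor that some motoneurons keep, averaged 451 ± 49.1 at P21 and 1849 ± 162 at P1 (3.99-fold lower, limma adjusted p = 1.81e-06). Hes6, a neurogenic relative of the Notch effectors, fell by 1.51, while Hes1, a Notch effector itself, rose by 0.93. The growth factor receptor gene Fgfr2 rose by 1.11 on its brighter probe set, with its other tested one at 0.20 and not called. Nkx6-2, which oligodendrocytes also express, rose by 1.37.

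Of 12 tested genes of reactive astrocytes, the state seen after injury, 5 were higher (41.7%, beside 22% of all genes). None was lower (beside 17.4% of all genes), also at an unadjusted p under 0.05, and the median was 0.71. Of the 5, Serping1 and Cp were below the filter level on all P1 arrays and so were tested through P21 alone. That leaves 3 higher genes read at both ages. Hspb1, a small heat shock protein that motoneurons make too, averaged 7595 ± 712 at P21 and 675 ± 213 at P1 (change 3.52 ± 0.23, limma adjusted p = 4.88e-06). Serping1, the C1 inhibitor, was at least 3.03-fold and Cp, the copper carrier ceruloplasmin, at least 2.22-fold higher, and both are made by cells of vessels and meninges as well. Serping1 read 1404 on P21 replicate 4 and 482 to 793 on the other P21 arrays. Among the 8 genes of this list with only dim probe sets were Serpina3n, C3 and Cxcl10.

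Markers of other cells moved between the same arrays, on which 22% of all genes tested were higher and 17.4% lower. Of 19 oligodendrocyte and myelin genes tested, 16 were higher and 0 lower, also at an unadjusted p under 0.05, with a median change of 1.66 and a summed intensity of 51443 to 54795 on the P21 arrays and 15495 to 17909 on the P1 arrays. Of those 16, Mobp, Mog, Opalin and Enpp6 were below the filter level on all P1 arrays and so were tested through P21 alone, which leaves 12 higher genes read at both ages, and the median is 1.61 with these 4 at their bound. Of 11 microglial genes, 8 were higher and 1 lower, with sums of 7792 to 12779 at P21 and 3568 to 4867 at P1. The higher genes Tyrobp and Cd74 were below the filter level on all P1 arrays, and the lower gene, Cd53, on all P21 arrays. P2ry12, Tmem119 and Cx3cr1 were too dim to test. Endothelial and pericyte genes were higher in 6 of 15 cases and lower in 0 (9 and 0 at an unadjusted p under 0.05), with sums of 10401 to 17081 at P21 and 9045 to 10271 at P1. Fibroblast and meningeal genes were higher in 6 of 11 and lower in 2 (Igfbp2, and Aldh1a2, which limb motoneurons also make), with sums of 27409 to 33455 at P21 and 18885 to 28140 at P1. Aldh1a2 alone averaged 528 at P21 and 6243 at P1, a large part of the P1 sums. Interneuron genes were lower in 6 of 9 and higher in 1, with sums of 8209 to 10757 at P21 and 15986 to 17129 at P1. Among the 6, Tac1 was below the filter level on all P21 arrays and so was tested through P1 alone. Oligodendrocyte precursor genes were higher in 3 of 7 and lower in 3, Schwann cell genes higher in 3 of 7 and lower in 2, ependymal genes higher in 2 of 4 and lower in 1, and motoneuron genes higher in 2 of 11 (Chat, 1.32, and Isl2, 0.33) and lower in 2 (Isl1, -1.67, and Ret, -0.50). The cholinergic motoneuron genes Slc18a3 (-0.15) and Slc5a7 (0.09) did not pass. Of 4 erythrocyte genes 2 were higher and 0 lower, also at an unadjusted p under 0.05. Some genes stand on more than 1 of these lists. By the same measure the mature astrocyte genes summed to 68986 to 78961 at P21 and 53116 to 60401 at P1, and the radial or immature genes to 17145 to 18688 at P21 and 24238 to 25986 at P1.

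Several of the 31 genes are known from these other cells too. S100b and Glul are made by oligodendrocytes, Apoe and Cst3 by microglia, and Vim, Nes, Id3 and Fabp5 by vessels, and neurons transcribe Clu, Sparcl1 and Mt3. Of the 13 tested genes listed with such a second source, 2 were higher (S100b and Mt3, 15.4%) and 1 lower (Sox2, 7.69%), with a median of 0.13. Of the other 14 tested genes, 8 were higher (57.1%) and 2 lower (Slc1a3 and Fabp7, 14.3%), with a median of 0.39. Among all genes tested, 22% were higher and 17.4% lower. The list of second sources is background knowledge, drawn up with earlier results of these data known, so these counts do not test the source of a change. The part of other cells in the changes of any of these genes was not tested.

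**Figure D3:**
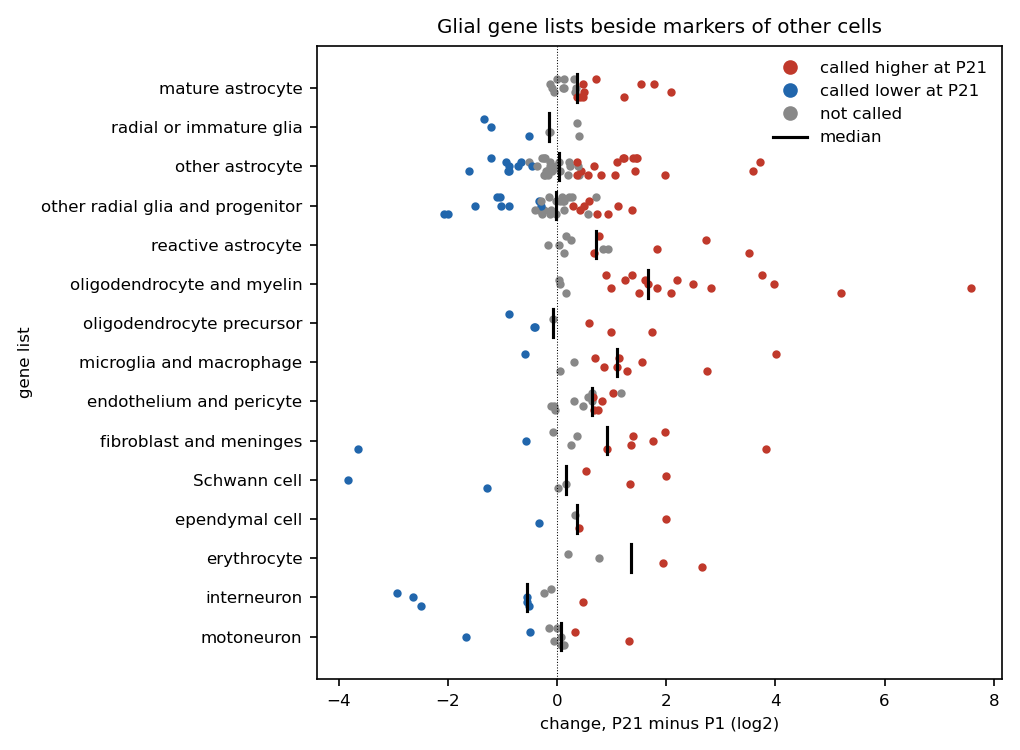
Change of each tested gene, P21 minus P1 on the log2 scale (horizontal axis), by list, with 1 dot per gene coloured by its call and a black bar at the list's median. The medians were 0.35 for mature astrocyte genes and -0.15 for radial or immature glia genes, beside 1.66 for oligodendrocyte and myelin genes and -0.55 for interneuron genes.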

How the data were processed

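The deposited table holds a linear intensity for each probe set on each array. How these values were summarised and normalized by the authors is not stated in any label or header. Medians of the arrays were 399.6 to 416.5 at P21 and 323.3 to 408.3 at P1, and 66 to 250 values per array were below 0. Per the labels' protocols, about 50 ng of RNA per pool was amplified in 2 rounds from the poly(A) tail, which favours 3′ ends. Arrays have no sequencing depth, and their number limits the precision.

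Of 31042 probe sets, 20826 had 1 symbol, 436 several and 9780 none. Values below 0 entered as 0, and log2(intensity + 16) was fitted in R 4.3.3 with limma 3.58.1 (lmFit, eBayes), P21 against P1, with no covariate. Where all 4 arrays of an age lay below the filter level, a fold is given as "at least", set against that level. Deviations of same-numbered arrays correlated at 0.514, 0.321, 0.558 and 0.15. On these correlations arrays of one number were treated as pairs, only in the same-number differences and the replicate block. The calls reported here come from the fit without pairs. The design text divides litters between ages without saying that a number is a litter. P21 replicate 3 and P1 replicate 4, of different number, correlated at 0.366. The script was tested on simulated data. All 31 genes are named, and from each further glial list the 3 called genes with the largest rise and fall, plus Gja1. Other list genes were named after their values were seen. The genes, lists and motifs were chosen with earlier results of these data known.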

Additional observations from a re-analysis of the deposited data

Results flagged for a closer look

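Chance puts about 1 in 20 groups of 4 arrays past the criterion used here, Dixon's 95% limit for the gap between a highest or lowest array and its neighbour, and 4 of 92 groups were past it. Agt read 1527 on P21 replicate 2 and 2032 to 2043 on the other P21 arrays, and without that array its change was 2.18. Mlc1 read 1885 on P21 replicate 3 and 1403 to 1477 on the others. Tnc read 2041 on P21 replicate 4 and 366 to 441 on the others. Isl1, a motoneuron transcription factor, read 366 on P21 replicate 3 and 189 to 210.1 on the others, and without that array its fall was -1.88 in place of -1.67.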

How the results depend on the processing

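Agt, Ntsr2, Gfap, Aqp4, S100b, Mt3, Slc1a3 and Fabp7 kept their direction and their call in all 17 alternatives, with the highest adjusted p at 0.0461 for Mt3 under median centring. The count of higher genes was 6 with no filter and 6 with median centring, where Slc1a2, Slc7a10, Acsbg1 and Mlc1 did not pass, and between 6 and 9 when 1 array was left out. The median change of the 27 genes was 0.33, with 0.20 under median centring, 0.21 with array quality weights, and between 0.19 and 0.35 when 1 array was left out. Centring moved the median of all probe sets to -0.07 in place of 0.07 and the share of calls that were higher to 38.6% in place of 54.4%, so the signs of small changes depend on the scaling, and those of Glul, Cst3, Slc4a4, Sparcl1 and Ndrg2 turned under some alternative. With the replicate block, 10 genes were higher and 3 lower, and it changed no call among the 27 genes, while it called 8805 probe sets in place of 7329. The brightest genes, such as Fabp5 and Ndrg2, read near the top of the scale, where probes can saturate, and this was not tested.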
